A study of Oryctolagus cuniculus with 12 samples.

Results

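Epidermal keratins are the intermediate filament proteins of skin keratinocytes, and 8 of them were listed by symbol as basal (KRT5, KRT14, KRT15), suprabasal (KRT1, KRT2, KRT10) or stress keratins (KRT16, KRT17). Of these 8 symbols, 7 were matched among the 29587 genes of the FPKM table (fragments per kilobase of gene, scaled to library size), each in a single row, and all 7 passed the filter on low values that left 13287 genes for testing. KRT14 was not matched by symbol and was not analysed under its own name, although the row named KRT16 is described as its protein. Bulk RNA-seq was carried out on full thickness ear tissue of wild type female rabbits, bought at an age of 10 to 12 weeks. Untreated normal skin (NS) came from a group of 3 rabbits. In the other 3 groups of 3 rabbits each, 7 mm wounds on the ventral ear had grown into hypertrophic scar, a raised scar with excess collagen. The HS group had no treatment. The drug-loaded MNs group received 1 patch of separating microneedles per lesion, carrying a prodrug of 5-fluorouracil acetic acid. The 5-Fu injection group received 0.1 mL of 5-fluorouracil solution (120 μg) per lesion. Both treatments were given on days 22, 29 and 36, and tissue was taken on day 43. The study calls the 3 samples of a group biologically independent, but neither it nor the sample titles say which rabbit gave each sample. The spread within a group is thus that between samples, and the rabbits of a treated group differ from those of the HS group.

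Keratins assemble as pairs of a type I and a type II protein. Proliferating keratinocytes of the basal layer make KRT5 with KRT14, and KRT15 is a further type I keratin of basal cells and of the hair follicle bulge. When a keratinocyte leaves the basal layer it switches to KRT1 with KRT10, and KRT2 is added in the upper spinous and granular layers. KRT16 and KRT17 are scarce in resting epidermis between follicles and are induced after wounding and in inflamed skin, usually beside the type II keratin KRT6, and KRT17 is also a regular keratin of the hair follicle.

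The rows of some of these genes in the table are not clean single-gene models, which limits what their values stand for. The genome build is not given in the sources used here, and the positions that follow are those of the table. The KRT5 row covers chromosome 4 from 36508086 to 36751484 on the minus strand, a span of 243399 bases, and 8 other rows lie inside it, among them KRT1 (36668987 to 36673786), KRT2 (36643557 to 36650434) and the hair follicle keratins KRT71, KRT72 and KRT73. The KRT15 row covers chromosome 19 from 42476434 to 42555383, is described in the table as the protein of KRT19 and holds the hair keratin KRT35. The KRT16 row covers chromosome 19 from 42551334 to 42572960, overlaps the KRT15 row and is described as the protein of KRT14. The KRT10 row covers chromosome 19 from 41854329 to 41888685, is described as the protein of KRT27 and holds KRT28, both inner root sheath keratins. KRT17, from 42579391 to 42583910 on chromosome 19, overlapped no other row. How reads in overlapping rows were assigned is not given in the sources used here, so values of all rows but KRT17 are uncertain to that extent, and KRT14 reads inside the KRT16 row cannot be told apart from KRT16 reads. In NS the KRT16 row was at 340 to 599 FPKM, beside 533 to 611 for KRT5. This row was thus not scarce in normal skin, and neither was KRT17, at 496 to 677 FPKM in NS. The class of both as stress keratins rests on their symbols and not on their levels here.

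Between 10521472 and 14043667 reads per sample lay on genes. The keratin rows rested on 1586 reads (the lowest value of KRT17) to 140370 reads (the highest of KRT10), so that counting error was small beside the spread between samples. The 7 keratins together took 1.56 to 2.45% of these reads in NS, 0.626 to 0.869% in HS, 1.71 to 3.73% with drug-loaded MNs and 1.35 to 2.14% with 5-Fu injection. The HS range lay below those of the other 3 groups. Of the 8 fibroblast markers listed, 7 were found and 0 of them were at 0 in any sample, and their summed FPKM was 2501 to 3559 in NS, 37635 to 48894 in HS, 19002 to 27224 with drug-loaded MNs, and 5051, 26785 and 6709 in the 3 samples with 5-Fu injection, where replicate 2 stood apart from the others. In bulk tissue, fewer keratinocytes and less keratin RNA per keratinocyte cannot be told apart, and the part of the fibroblast content in the keratin differences was not tested.

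**Figure D1:**
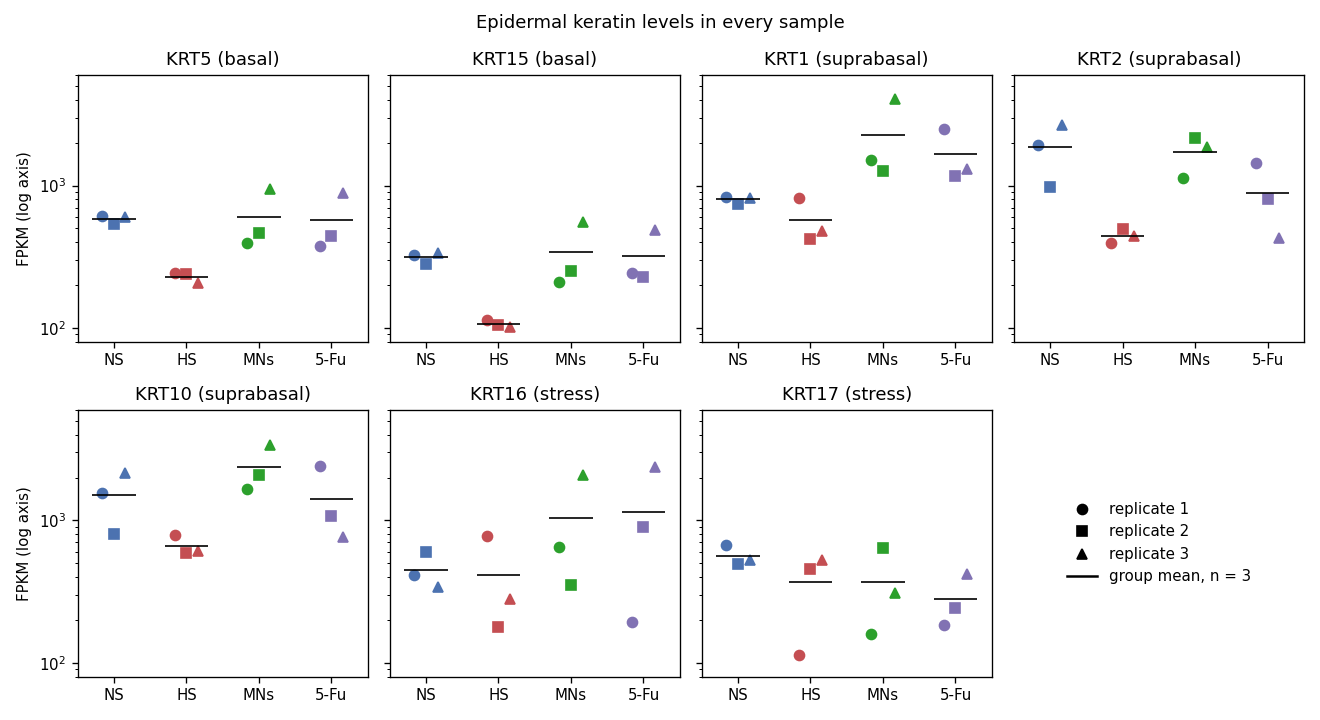
Level of each epidermal keratin in every sample, as FPKM on a log axis, with marker shapes for replicates 1 to 3 and black bars for group means (n = 3). KRT5, KRT15 and KRT2 in HS lie below all NS samples, KRT1 lies above all NS samples in both treated groups, and KRT16 with 5-Fu injection spans 193 to 2365.

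The basal keratins were low in HS and moved together. KRT5, the type II keratin of the basal layer, was 611, 533 and 606 FPKM in the 3 NS samples and 243, 239 and 207 in HS. It was 394, 464 and 952 with drug-loaded MNs and 375, 445 and 888 with 5-Fu injection. Every HS sample was below every sample of the other groups, and replicate 3 was the high sample of both treated groups. The mean level was 603 ± 304 with drug-loaded MNs, 584 ± 43.8 in NS, 569 ± 278 with 5-Fu injection and 229.6 ± 19.6 in HS (SD, n = 3 each). In that order, the ranges of the first 3 groups overlapped and that of HS did not.

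KRT15 was 327, 279.8 and 339 FPKM in NS, 114, 104 and 102 in HS, 212, 249.5 and 556 with drug-loaded MNs, and 244, 227 and 491 with 5-Fu injection. As for KRT5, HS was below all other samples and replicate 3 was highest in both treated groups, and the means were 339 ± 189 (drug-loaded MNs), 320.5 ± 148 (5-Fu injection), 315 ± 31.1 (NS) and 107 ± 6.66 (HS). The ratio of KRT15 to KRT5 stayed between 0.436 and 0.651 in the 12 samples, and their levels on the log2(FPKM + 1) scale had a Pearson r of 0.99 over the 12 samples, or 0.98 after group means were taken out. These points share libraries and scaling, and the r is a description.

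The suprabasal keratins did not form a single pattern. KRT1, the type II keratin that marks entry into differentiation, was 833, 742 and 822 FPKM in NS, 817, 422 and 483 in HS, 1521, 1257 and 4053 with drug-loaded MNs, and 2486, 1164 and 1309 with 5-Fu injection. HS replicate 1 lay within the NS range and the other 2 HS samples below it, and all 6 treated samples were above all 6 samples of NS and HS. Mean KRT1 was 2277 ± 1544 with drug-loaded MNs, 1653 ± 725 with 5-Fu injection, 799 ± 49.8 in NS and 574 ± 213 in HS (SD, n = 3 each), with overlap between the treated groups and between NS and HS.

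KRT2, the late type II keratin, was 1937, 971 and 2683 FPKM in NS, 395, 499 and 444 in HS, 1133, 2155 and 1874 with drug-loaded MNs, and 1441, 801 and 431 with 5-Fu injection. HS was below NS and below drug-loaded MNs without overlap, whereas the lowest sample with 5-Fu injection, replicate 3, lay within the HS range. The mean level was 1864 ± 858 in NS, 1721 ± 528 with drug-loaded MNs, 891 ± 511 with 5-Fu injection and 446 ± 51.8 in HS. Each group overlapped its neighbour in this order.

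KRT10, the type I partner of KRT1, was 1558, 802 and 2165 FPKM in NS, 794, 588 and 613 in HS, 1649, 2083.5 and 3385 with drug-loaded MNs, and 2403, 1076 and 770.3 with 5-Fu injection. The highest HS value lay just under the lowest NS value, and again replicate 3 with 5-Fu injection fell within the HS range. Mean KRT10 was 2373 ± 903 with drug-loaded MNs, 1508 ± 683 in NS, 1416 ± 868 with 5-Fu injection and 665 ± 113 in HS. Across the 12 samples KRT10 had an r of 0.88 with KRT2 and 0.79 with KRT1, while KRT1 and KRT2 had an r of 0.46.

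Of the stress keratins, KRT16 varied widely within each scar group, and KRT17 within HS and drug-loaded MNs. KRT16 was 413, 599 and 339.8 FPKM in NS, 774, 179 and 279 in HS, 654, 349.8 and 2090.1 with drug-loaded MNs, and 193, 895 and 2365 with 5-Fu injection. The highest sample was 1.76 times the lowest in NS, 4.32 times in HS, 5.97 times with drug-loaded MNs and 12.2 times with 5-Fu injection. In the same order it was 1.36, 4.67, 4.05 and 2.30 times for KRT17 and 1.15, 1.17, 2.41 and 2.37 times for KRT5. It was 2.76, 1.26, 1.90 and 3.34 times for KRT2 and 2.70, 1.35, 2.05 and 3.12 times for KRT10. A wide spread was thus not confined to the stress keratins. The mean level was 1151 ± 1108 with 5-Fu injection, 1031 ± 929 with drug-loaded MNs, 450.5 ± 134 in NS and 411 ± 319 in HS, and all 4 groups overlapped.

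KRT17 was 677, 496 and 524 FPKM in NS, 113, 458 and 527 in HS, 158, 641 and 307 with drug-loaded MNs, and 183, 243 and 421 with 5-Fu injection. Replicate 1 was the low sample in HS and in both treated groups, although the numbers name different rabbits. Mean KRT17 was 566 ± 97.4 in NS, 369 ± 247 with drug-loaded MNs, 366 ± 222 in HS and 282 ± 124 with 5-Fu injection. The ranges overlapped between neighbours in this order, and those of NS and 5-Fu injection did not overlap.

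In NS the order of FPKM values began with KRT2, KRT10 and KRT1 in each of the 3 samples. No other group kept the same first 3 keratins in order in all its samples. KRT1 led in HS replicate 1, KRT10 in HS replicates 2 and 3, and KRT16 led in replicate 3 with 5-Fu injection. KRT2 made up 22.0 to 35.9% of the summed FPKM of the 7 keratins in NS, 12.2 to 20.03% in HS, 14.2 to 29.9% with drug-loaded MNs and 6.46 to 19.7% with 5-Fu injection. Conversely, KRT1 made up 11.0 to 16.8% in NS and 17.0 to 25.1% in HS, and its share was 17.5 to 30.7% with drug-loaded MNs and 19.6 to 33.9% with 5-Fu injection. The KRT2 share in NS overlapped neither HS nor 5-Fu injection, and the KRT1 share in NS overlapped none of the other groups. FPKM divides reads by row length, which was 4761 bases for KRT5, 7446 for KRT15 and 3844 for KRT10. It was 2275 for KRT1 and 1875 for KRT2, so the order and the shares depend on these row lengths. In reads, KRT5 (37840, 33032 and 33878) exceeded KRT1 (24644, 21961 and 21942) in the 3 NS samples.

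**Figure D2:**
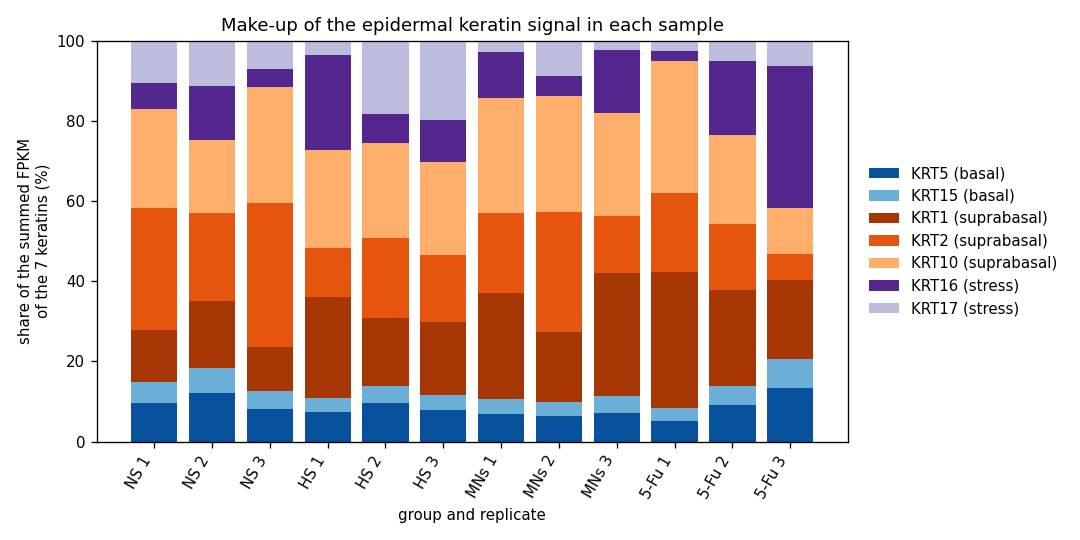
Share of each keratin in the summed FPKM of the 7 keratins (vertical axis, %) for the 12 samples (horizontal axis, group and replicate), with basal keratins in blue, suprabasal in orange and brown, and stress in purple. The KRT1 share is lowest in NS (11.0 to 16.8%), and KRT16 takes 35.4% in 5-Fu injection replicate 3 against 2.64% in the lowest sample of that group.

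The comparison of HS with NS asks how scar differs from normal skin. KRT5, KRT15 and KRT2 fell in HS, and the other 4 keratins, both stress keratins among them, did not pass the test. A gene was called when limma on log2(FPKM + 1) gave a Benjamini-Hochberg adjusted p under 0.05 over the 13287 genes tested and the log2 fold change exceeded 1 in size. The 3 keratins called were all lower, beside a background of 5% of genes called and 1.48% called lower. KRT2 had a log2 fold change of -1.95 (SE 0.46, limma adjusted p = 0.0268), KRT15 of -1.55 (SE 0.35, adjusted p = 0.0248) and KRT5 of -1.34 (SE 0.35, adjusted p = 0.042). KRT10 had a value of -1.08 (SE 0.46, adjusted p = 0.185) and, like those 3, its groups did not overlap. A total of 4 keratins were thus lower in HS without overlap, beside 15.3% of all genes. For KRT1 the value was -0.54 with a 95% confidence interval of -1.50 to 0.43, for KRT16 -0.37 (-2.31 to 1.57) and for KRT17 -0.89 (-2.22 to 0.44). The intervals for the stress keratins hold both no difference and the size seen for KRT5. The count of 3 fell to 0 without NS replicate 1, NS replicate 3 or any of the 3 HS samples, to 1 (KRT2) without NS replicate 2, and to 2 (KRT15 and KRT2) without drug-loaded MNs replicate 2. It was 1 (KRT15) with no filter on low values.

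Scar treated with drug-loaded MNs was set against untreated scar to ask how they differ. The study also had a drug-free MNs group, which was not in the bulk RNA-seq. The prodrug and the needles themselves therefore cannot be told apart here. None of the 7 keratins was called, and limma called 1 gene in all (0.00753% of those tested). At an unadjusted p under 0.05, 5 keratins were higher with drug-loaded MNs, beside 4.78% of all genes, and the same 5, both basal and all 3 suprabasal keratins, had groups that did not overlap, beside 8.53% of all genes. The log2 fold change was 1.90 for KRT2 (SE 0.46, limma adjusted p = 0.24), 1.84 for KRT1 (SE 0.44, adjusted p = 0.239), 1.78 for KRT10 (SE 0.46, adjusted p = 0.261), 1.52 for KRT15 (SE 0.35, adjusted p = 0.239) and 1.28 for KRT5 (SE 0.35, adjusted p = 0.31). The stress keratins had values of 1.21 for KRT16 (95% confidence interval -0.73 to 3.15) and 0.06 for KRT17 (-1.27 to 1.39). The median over the 7 keratins was 1.52, beside -0.02 over all genes tested.

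In the comparison of 5-Fu injection with HS, KRT15 rose and no other keratin was called, beside a background of 2.29% of genes called and 0.512% called higher. KRT15 had a log2 fold change of 1.49 (SE 0.35, limma adjusted p = 0.0426). KRT1 (1.50, SE 0.44, adjusted p = 0.0706) and KRT5 (1.20, SE 0.35, adjusted p = 0.0707) missed the threshold, and these 3 keratins were higher without overlap, beside 13.9% of all genes. For KRT10 and KRT2 the values were 0.93 (95% confidence interval -0.08 to 1.94) and 0.84 (-0.17 to 1.84), and for KRT16 and KRT17 1.13 (-0.81 to 3.07) and -0.18 (-1.51 to 1.15). Without 5-Fu injection replicate 2, the sample rich in fibroblast markers, KRT15 and KRT1 were called, and without drug-loaded MNs replicate 3, which enters through the shared spread, KRT5, KRT15 and KRT1 were called. The count was 0 without 5-Fu injection replicate 1 or 3, without any 1 of the NS or HS samples, or without drug-loaded MNs replicate 2. It was also 0 with no filter on low values and with NS and drug-loaded MNs left out of the fit. The calls over all genes moved too, from 304 to 9, 0 and 0 without HS replicate 1, 2 or 3, to 16 and 12 without 5-Fu injection replicate 1 or 3, and to 803 without replicate 2.

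The 2 treatments differ in compound and in route. The patch carries a prodrug of 5-fluorouracil acetic acid, a derivative of the 5-fluorouracil that was injected. The labels give no dose for the patch, so doses could not be compared. Of the 7 keratins, 0 were called in drug-loaded MNs against 5-Fu injection, beside 0% of all genes, and 1 (KRT2) had an unadjusted p under 0.05, beside 8.15% of genes with such a p that were higher with drug-loaded MNs. KRT2 had a log2 fold change of 1.07 (95% confidence interval 0.06 to 2.07, limma adjusted p = 0.315) and KRT10 of 0.85 (-0.16 to 1.86). KRT1 had a value of 0.34 (-0.62 to 1.30), KRT5 of 0.08 (-0.70 to 0.85), KRT15 of 0.04 (-0.74 to 0.82), KRT16 of 0.07 (-1.86 to 2.01) and KRT17 of 0.25 (-1.08 to 1.57). In 0 keratins did the groups not overlap, beside 17.1% of all genes. These intervals do not show that the treatments act alike.

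**Figure D3:**
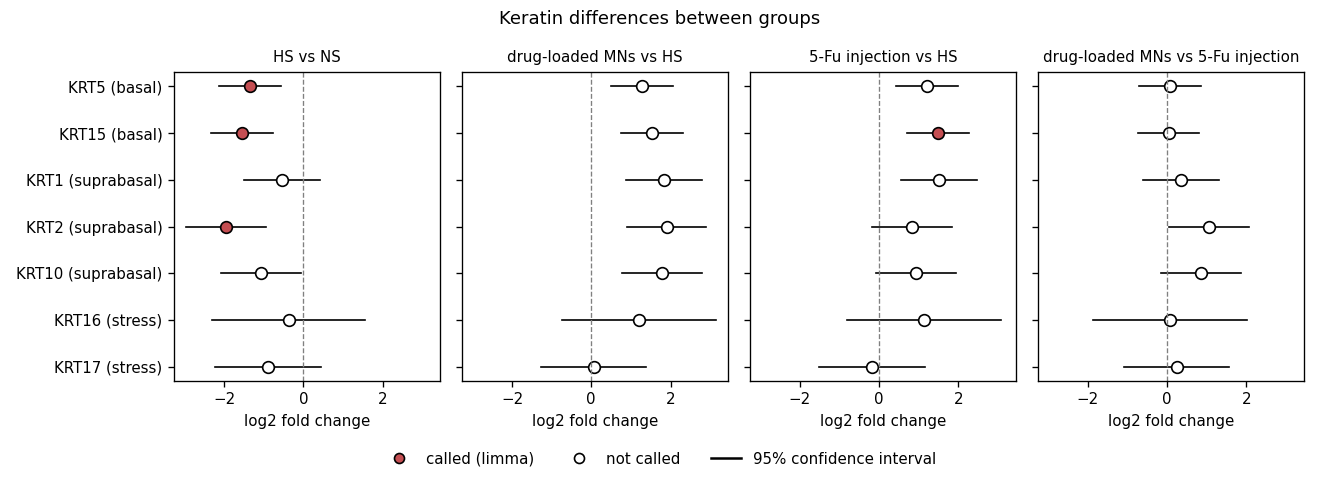
Log2 fold change of each keratin (horizontal axis, log2(FPKM + 1) scale) with its 95% confidence interval in 4 comparisons, first group minus second, with filled points for genes called by limma. Filled points are KRT5, KRT15 and KRT2 in HS against NS and KRT15 in 5-Fu injection against HS, and the intervals of KRT16 and KRT17 cross 0 in all 4 panels.

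Against NS, 0 keratins were called with drug-loaded MNs (0.873% of all genes were) or with 5-Fu injection (0.00753%). These comparisons share the NS samples. KRT1 was higher than in NS without overlap in each, with a log2 fold change of 1.31 (SE 0.44, limma adjusted p = 0.22) for drug-loaded MNs and 0.97 (SE 0.44, adjusted p = 0.335) for 5-Fu injection, beside 11.5% and 9.6% of genes higher without overlap. KRT17 was lower than in NS without overlap with 5-Fu injection (-1.07, SE 0.60, adjusted p = 0.411, beside 9.16% of genes lower without overlap), and KRT2 had a value of -1.11 there (95% confidence interval -2.12 to -0.11, adjusted p = 0.296). KRT5 and KRT15 had values of -0.06 and -0.02 with drug-loaded MNs and of -0.14 and -0.06 with 5-Fu injection. The 95% confidence intervals with drug-loaded MNs were -0.83 to 0.71 (KRT5) and -0.80 to 0.76 (KRT15), and those with 5-Fu injection -0.91 to 0.63 and -0.84 to 0.72.

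Ratios within a sample do not depend on how libraries were scaled. Their size, and the weight of each gene in a sum, depends on the row lengths, which are the same in all samples. They were formed after the levels were seen and carry no test. The ratio of KRT1 to KRT5 was 1.36, 1.39 and 1.36 in NS, 3.37, 1.77 and 2.33 in HS, 3.86, 2.71 and 4.26 with drug-loaded MNs, and 6.64, 2.62 and 1.47 with 5-Fu injection. All 9 scar samples, treated or not, were above the 3 NS samples, which lay close together. The ratio of KRT1 to KRT2 was 0.430, 0.764 and 0.306 in NS and 2.07, 0.846 and 1.09 in HS, again without overlap. With 5-Fu injection it was 1.73, 1.45 and 3.03, and with drug-loaded MNs it was 1.34, 0.583 and 2.16, a range that held the highest NS sample.

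The summed suprabasal keratins were 4.61, 3.09 and 6.00 times the summed basal keratins in NS and 5.62, 4.40 and 4.98 times in HS. With drug-loaded MNs the ratio was 7.10, 7.70 and 6.18, above every NS and HS sample. With 5-Fu injection it was 10.2, 4.53 and 1.82, so that this group held both the highest and the lowest of the 12 samples. The summed stress keratins were 1.16, 1.35 and 0.914 times the basal sum in NS and 2.49, 1.86 and 2.61 times in HS, without overlap, while the stress sum itself was 1090, 1095 and 864 FPKM in NS and 887, 638 and 806 in HS. The higher ratio in HS therefore went with a lower basal sum (357, 343 and 309 FPKM, against 938, 813 and 945 in NS) and not with a higher stress sum. With drug-loaded MNs this ratio was 1.34, 1.39 and 1.59, below every HS sample, and with 5-Fu injection it was 0.608, 1.69 and 2.02. For each stress keratin alone, the ratio to KRT5 overlapped between HS and NS. KRT16 over KRT5 was 3.19, 0.749 and 1.35 in HS and 0.675, 1.12 and 0.561 in NS. KRT17 over KRT5 was 0.466, 1.92 and 2.55 in HS and 1.11, 0.930 and 0.864 in NS. The stress sum also holds the KRT16 row, which is described as the protein of KRT14, a basal keratin.

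**Figure D4:**
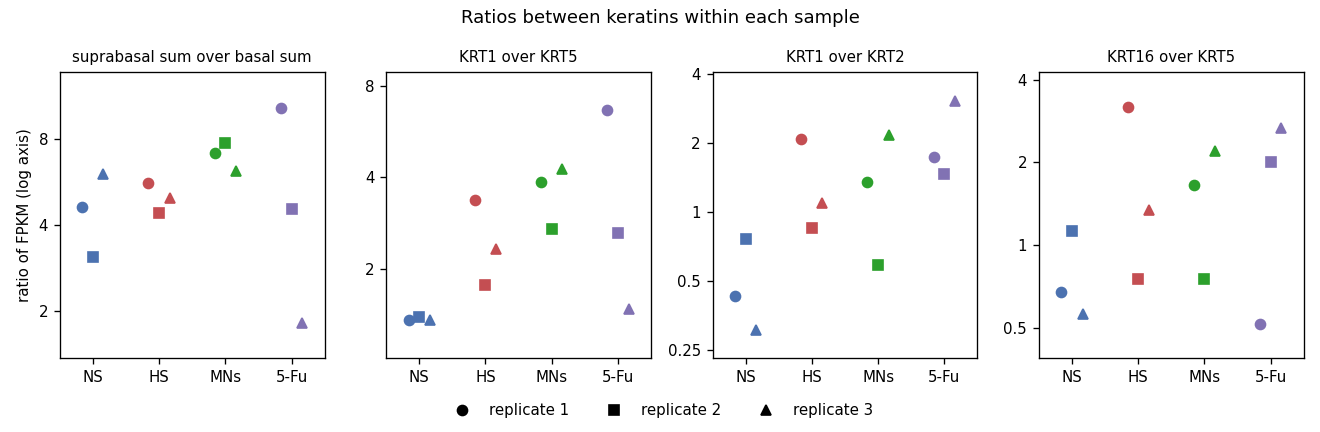
Ratios of FPKM between keratins within each sample (vertical axes, log scale) by group, with marker shapes for the replicates. Suprabasal over basal is 6.18 to 7.70 with drug-loaded MNs and 1.82 to 10.2 with 5-Fu injection, and KRT1 over KRT5 is close to 1.4 in the 3 NS samples and higher in all scar samples.

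The 3 samples with 5-Fu injection differed among themselves. Replicate 1 had the highest KRT1, KRT10 and KRT2 of its group with the lowest KRT16, replicate 3 had the lowest KRT10 and KRT2 of the group with the highest KRT16 of the 12 samples, and replicate 2 lay between them for KRT10, KRT2 and KRT16. Within groups, over the 12 samples with group means taken out, KRT16 had an r of -0.65 with KRT2 and 0.76 with KRT5. These values rest on few rabbits and on shared libraries, and are descriptive.

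KRT16 and KRT17 did not vary together (r = -0.21 over the 12 samples). KRT16 was set beside genes that inflamed keratinocytes also make, S100A8 and S100A9, which form calprotectin and are abundant in neutrophils too. S100A8 was 1723, 4433 and 14.7 FPKM in NS, 1653, 32.6 and 282 in HS, 1152, 43.7 and 4021 with drug-loaded MNs, and 162, 1162 and 3865 with 5-Fu injection, and its r with KRT16 was 0.76. In each scar group the sample with the highest KRT16 also had the highest S100A8. S100A9 had an r of 0.78 with KRT16, and S100A12 of 0.72. These genes were chosen from the 13 stressed keratinocyte genes tested after their values were seen, and the r of other single members was not computed. TGFA, of the same list, was 0.190 FPKM in 5-Fu injection replicate 3, where KRT16 was highest. It was 2.42 and 2.90 in HS replicates 2 and 3, where KRT16 was lower. KRT6A, the type II keratin that pairs with KRT16, was found only as a row without a symbol whose description names it, and was chosen after its values were seen. It was 37.5, 65.5 and 13.1 FPKM in NS, 40.9, 15.4 and 45.03 in HS, 69.2, 29.3 and 109.5 with drug-loaded MNs, and 3.98, 108 and 156 with 5-Fu injection, with an r of 0.85 with KRT16. This row has a gene length of 462 bases and lies inside a longer keratin row without a symbol. Its values share the uncertainty of the other overlapping rows. NS replicate 2 had the highest S100A8 of all, so high values were not confined to scar.

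KRT17 was set beside the hair follicle and sebaceous gland markers, of which 9 of 15 listed were tested. Their r with KRT17 over the 12 samples ran from -0.21 (LGR5) to 0.91 (LHX2) and was above 0 for 8 of 9, and LHX2 was also among the 3 genes nearest to KRT17. The mean level of this list had an r of 0.74 with KRT17. The r was 0.63 for the mean of basal keratinocyte genes, 0.57 for skeletal muscle markers and 0.50 for cartilage markers, and was lowest for endothelial markers (-0.44). A positive r with KRT17 was thus not particular to follicle markers. LHX2, a transcription factor of hair follicle stem cells, was 7.25, 4.24 and 6.00 FPKM in NS, 0.799, 7.13 and 5.10 in HS, 1.75, 6.27 and 1.50 with drug-loaded MNs, and 1.41, 3.08 and 3.00 with 5-Fu injection, and HS replicate 1 was lowest for both LHX2 and KRT17. LGR5, a receptor of cycling follicle stem cells that is also made by other cells, was 1.69, 1.15 and 1.53 FPKM in NS, 20.5, 22.3 and 18.7 in HS, 9.14, 12.7 and 15.9 with drug-loaded MNs, and 1.07, 7.39 and 3.53 with 5-Fu injection. LGR5 rose in HS against NS (log2 fold change 3.13, SE 0.40, limma adjusted p = 0.00177) and fell in 5-Fu injection against HS (-2.32, SE 0.40, adjusted p = 0.024), and KRT17 was called in neither comparison. The mean log2(FPKM + 1) of the 15 hair keratins found was 4.09, 1.37 and 3.63 in NS, 2.11, 4.84 and 5.14 in HS, 3.20, 4.31 and 4.43 with drug-loaded MNs, and 2.74, 2.68 and 3.01 with 5-Fu injection. Its r with KRT17 was 0.49 over the 12 samples, and 0.74 within groups. NS replicate 2 was low in hair keratins with KRT17 at 496 FPKM. The number of follicles in each sample is not known, and their part in the KRT17 values was not tested.

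**Figure D5:**
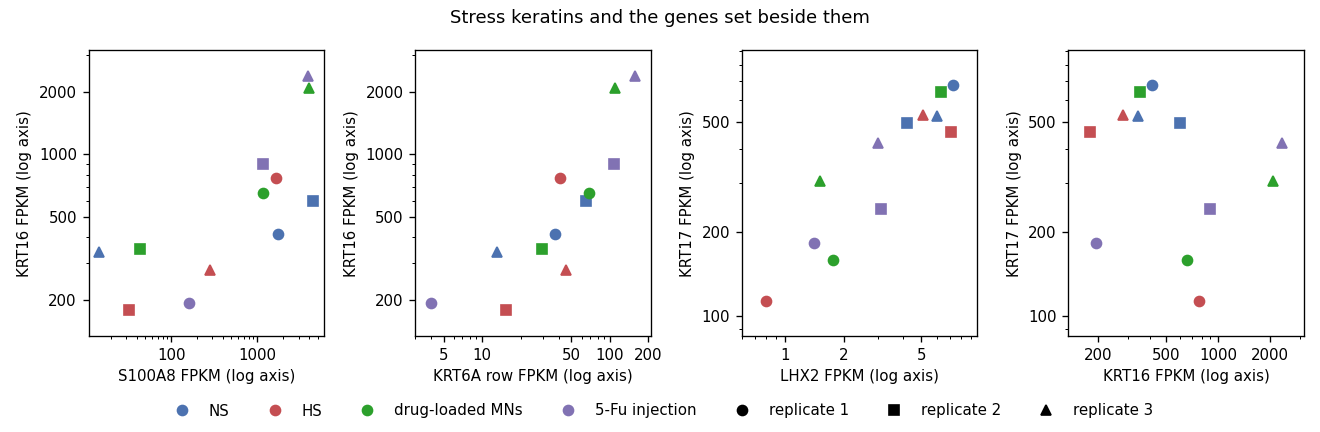
KRT16 against S100A8 and against the KRT6A row, KRT17 against LHX2, and KRT17 against KRT16, as FPKM on log axes for the 12 samples, with colours for groups and marker shapes for replicates. KRT16 is high where S100A8 and the KRT6A row are high (r = 0.76 and 0.85), KRT17 is high where LHX2 is high (r = 0.91), and KRT16 and KRT17 show no joint pattern (r = -0.21).

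Genes most like each keratin class were taken as those with the highest Pearson r with the class mean on the log2(FPKM + 1) scale over the 12 samples, which share libraries and scaling. For the basal keratins these were MAP3K6 (r = 0.93), FAM83F (0.90) and SEMA4B (0.89). The suprabasal keratins were followed by TMEM54 (0.97), CSTA (0.97), which encodes the cornified envelope protease inhibitor cystatin A, and COL17A1 (0.95), a hemidesmosome collagen of basal cells. For the stress keratins they were KTN1 (0.88), BTF3L4 (0.86) and ERAL1 (0.84). The mean of 2 stress keratins that did not vary together is a weak guide, and HMGN5 (0.95) was nearest to KRT16 and IGSF9 (0.93) to KRT17.

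Other keratinocyte genes were read from lists of their own. Basal keratinocyte genes other than keratins, such as integrins and hemidesmosome parts, had 10 of 12 members tested. In HS against NS COL17A1 fell (log2 fold change -1.25, SE 0.32, limma adjusted p = 0.0357) and the other 9 were not called, beside 5% of all genes called. The list median was -0.43 beside -0.01 over all genes. With drug-loaded MNs against HS 0 of 10 were called and the median was 0.30, and for 5-Fu injection against HS 0 were called and the median was 0.04. COL17A1, with the highest mean level of the list, had values of 1.64 (SE 0.32, adjusted p = 0.188) and 1.21 (SE 0.32, adjusted p = 0.0534) in these comparisons, and ITGB4, the integrin of hemidesmosomes, had 0.39 and 0.47.

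Suprabasal differentiation genes, which build the cornified envelope and its proteases, had 12 of 20 members tested. In HS against NS 0 were called and the median was -0.46. KRTDAP, a secreted product of differentiating keratinocytes, had a value of -1.36 (SE 0.45, limma adjusted p = 0.0998) and CALML5, a calcium-binding protein of the upper layers, of -0.53 (adjusted p = 0.524). With drug-loaded MNs against HS 0 were called, all 12 had values above 0 beside 46.8% of all genes, 10 had an unadjusted p under 0.05 beside 4.78% of all genes, and the median was 1.36. KRTDAP had a value of 1.62 (SE 0.45, adjusted p = 0.319) and CALML5 of 1.49 (SE 0.46, adjusted p = 0.363) there. For 5-Fu injection against HS 0 were called, 2 had such a p beside 11.6% of all genes, and the median was 0.55. In drug-loaded MNs against 5-Fu injection 0 were called, 4 had such a p beside 8.15% of all genes, all 12 values were above 0 beside 50.3%, and the median was 0.65.

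General keratinocyte genes, mostly of desmosomes and epithelial junctions, had 10 of 14 members tested. OVOL1, a transcription factor of epidermal differentiation, fell in HS against NS (-1.17, SE 0.24, limma adjusted p = 0.0149). It was the only 1 of 10 called, beside 5% of all genes, and the list median was -0.71. Only GJB2 had a value above 0 there (2.53, SE 0.83, limma adjusted p = 0.0939), beside 48.6% of all genes. It was 119, 45.2 and 78.5 FPKM in HS and 15.1, 7.11 and 16.4 in NS, without overlap. With drug-loaded MNs against HS 0 were called, 7 had an unadjusted p under 0.05 beside 4.78% of all genes and the median was 1.06, with values of 0.99 for JUP (plakoglobin, adjusted p = 0.239) and 1.39 for PKP1 (plakophilin, adjusted p = 0.239). The median was 0.39 for 5-Fu injection against HS, where 0 were called and 3 had such a p beside 11.6% of all genes.

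Stressed keratinocyte genes had 13 of 24 members tested. HBEGF, a growth factor released by wounded keratinocytes, fell in HS against NS (-1.01, SE 0.23, limma adjusted p = 0.0225), and IL36G, a cytokine of inflamed epidermis, rose with drug-loaded MNs against NS (1.68, SE 0.31, adjusted p = 0.0361), where it was 27.9, 30.3 and 29.1 FPKM against 11.1, 4.63 and 11.2. Of all genes, 5% were called in HS against NS and 0.873% in drug-loaded MNs against NS. In the 4 other comparisons 0 of 13 were called. S100A8 and S100A9 had standard errors of 2.29 and 1.99 on the log2 scale, too wide to show a difference of the size seen for the basal keratins. Of 8 proliferation genes 5 were tested, and TOP2A rose in HS against NS (1.08, SE 0.29, adjusted p = 0.0488) while 0 were called in the other 5 comparisons.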

How the data were processed

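RNA-seq of 12 rabbit ear samples in 4 groups of 3 was analysed from the 1 table the authors deposited, which gives FPKM per gene. Libraries were made from mRNA with the SMARTER kit. The aligner, the genome build and the counting of overlapping genes are not given in the sources used here. Deposited FPKM values were checked for a smallest step in each sample. Below an upper limit on reads, 100% of values were whole reads to within 0.05 of a read, so reads could be counted back. Higher values, such as those of KRT10, were not checked in this way. The library sizes were 0.873 to 1.2 times the reads on genes. Samples were grouped by their labels. Groups were compared with limma 3.58.1 in R 4.3.3 on log2(FPKM + 1), with 1 fit for the 4 groups and a trend of variance with level. The 13287 genes whose mean FPKM reached 1 were tested, and p-values were adjusted over them by Benjamini-Hochberg in each of 6 comparisons. A gene was called where its adjusted p was under 0.05 and its log2 fold change exceeded 1 in size. Fold changes on this scale understate those of low genes. DESeq2, with which the authors tested their counts, was not run, and the reads counted back entered only limma voom. The procedure was tested on simulated data. Ratios, shares and figures were made with Python 3.11.15. Named genes were all keratins found and, per list and comparison, the called members (at most 4) or, where none was called, the 2 with the highest mean, given for the comparisons that the text describes, and the 3 genes most like each keratin class. S100A8, S100A9, S100A12, TGFA, GJB2, LHX2, LGR5, KRT6A, HMGN5 and IGSF9 were named beside these after their values were seen where the rule did not name them. The keratins and the gene lists were chosen with earlier results of these data known. Equal replicate numbers were not used as pairs, since the groups are different rabbits. Alternatives were the pseudocount, the filter, the scaling, the samples in the fit, the trend, a replicate block, limma voom on the reads, and leaving out each sample.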

Additional observations from a re-analysis of the deposited data

How the results depend on the processing

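Among the 4 comparisons with no keratin called, the count was 0 under every alternative. For HS against NS the count of 3 became 1 with no filter on low values, and for 5-Fu injection against HS the count of 1 became 0 with no filter and with only the groups compared. With the replicate block it was 2 for HS against NS (KRT2 at a limma adjusted p of 0.0556) and 0 for 5-Fu injection against HS (KRT15 at 0.0521), and the block changed no other keratin call. The correlation of same-numbered samples was over 0.1 in all 3 pairs of no comparison, from -0.27 to 0.44. Leaving out each sample in turn gave counts of 0 to 3 for HS against NS, 0 to 3 for 5-Fu injection against HS, and 0 for the others. The log2 fold change changed sign in 32 such refits, all of keratins that were not called, and in none of the 420 refits of single keratins under other settings. These ranges were -0.968 to 0.0851 for KRT16 in HS against NS, -0.64 to 0.56 for KRT17 in drug-loaded MNs against HS and -0.89 to 0.22 for KRT17 in 5-Fu injection against HS. For drug-loaded MNs against 5-Fu injection they were -0.31 to 0.45 (KRT5), -0.39 to 0.39 (KRT15), -0.17 to 0.68 (KRT1), -0.89 to 0.91 (KRT16) and -0.27 to 0.74 (KRT17). For drug-loaded MNs against NS they were -0.45 to 0.19 (KRT5), -0.45 to 0.25 (KRT15) and -0.46 to 0.28 (KRT2), and for 5-Fu injection against NS -0.51 to 0.11 (KRT5), -0.41 to 0.14 (KRT15), -0.61 to 0.21 (KRT10) and -0.0734 to 1.73 (KRT16). Rescaling to the total of reads moved the median of all genes to -0.33 in HS against NS and the share of calls that were higher from 70.5% to 29.3%. KRT10 was then called as well (-1.44, limma adjusted p = 0.0414), and KRT5, KRT15 and KRT2 had values of -1.71, -1.91 and -2.31. The same rescaling moved that median to 0.11 for drug-loaded MNs against HS, 0.13 for 5-Fu injection against HS (with 22.4% of calls higher becoming 43.9%), -0.19 for drug-loaded MNs against NS (90.5% becoming 76.7%) and -0.19 for 5-Fu injection against NS (1 call becoming 4).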

Other observations

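Hair follicle and hair shaft keratins, of which 14 of 26 listed were tested, were called in 0 of the 6 comparisons. Their median log2 fold change was 1.19 in HS against NS, with 13 of 14 above 0 beside 48.6% of all genes. It was 1.20 in drug-loaded MNs against 5-Fu injection, with 14 of 14 above 0 beside 50.3% of all genes. The median was 1.19 in drug-loaded MNs against NS (13 of 14 above 0, beside 50.2%) and -1.04 in 5-Fu injection against HS (1 of 14, beside 51.4%). In drug-loaded MNs against HS it was -0.08, and in 5-Fu injection against NS 0.09. These genes share follicles and their values are not independent. KRT71, an inner root sheath keratin, was 162, 8.60 and 164 FPKM in NS, 21.9, 305 and 454 in HS, 75.0, 205 and 295 with drug-loaded MNs, and 52.3, 58.0 and 94.4 with 5-Fu injection. KRT25, its type I partner, followed the same samples, at 9.66 FPKM in NS replicate 2 and 431 in HS replicate 3. NS replicate 2 and HS replicate 1 were thus the low samples of their groups.

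Other epithelial keratins had 5 of 21 members tested and 0 called in the 6 comparisons. KRT80 was 27.3, 10.6 and 28.9 FPKM in NS, 7.75, 18.5 and 17.2 in HS, 23.0, 40.7 and 27.6 with drug-loaded MNs, and 28.6, 9.49 and 3.56 with 5-Fu injection. KRT23 had a log2 fold change of 0.98 (SE 0.59, limma adjusted p = 0.658) and KRT80 of 1.07 (SE 0.61, adjusted p = 0.642) in drug-loaded MNs against HS, and for both the 3 samples with drug-loaded MNs were above the 3 HS samples.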
